A study of Mus musculus with 3 samples.

Results

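Isl1 occupancy was examined at 10 genes of the Sox family of transcription factors (Sox1, Sox2, Sox4, Sox5, Sox6, Sox7, Sox9, Sox11, Sox17 and Sox18). Identical repeated lines of the peak list were dropped, which left 14082 distinct peaks from 14165 lines, and the peaks that carried 1 of these gene names were kept. This gave 11 of the 14082 peaks, at 6 of the 10 genes, among 9313 gene names in the whole list. Chromatin was prepared from cardiac progenitor cells (CPCs) at day 5 of differentiation. They were derived from E14 mouse embryonic stem cells (ESCs) carrying the Tg(Nkx2-5-EmGFP) transgene, a green fluorescent reporter of the early cardiac gene Nkx2-5. In ChIP-Seq, crosslinked and sheared chromatin is pulled down with an antibody and sequenced. There were 3 samples, all from this cell line and day: 2 replicates pulled down with an antibody against Isl1, a LIM-homeodomain factor of cardiac progenitors, and 1 input, chromatin set aside before the pulldown. All values come from 1 ESC line in culture with no treated or mutant group, the labels do not say whether the replicates were separate differentiations, and a list of peaks cannot show which cell types were present.

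The authors combined both replicates into 1 list of positions with no peak height, so no value below has a replicate error, no comparison between samples could be made, and the depth is unknown. All coordinates are on mm9, and starts are uncertain by 1 bp. Distances are the deposited ones, in bp from the peak midpoint to the closest transcription start site (TSS), negative upstream and positive downstream.

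Sox factors bind DNA through an HMG box, a domain that sits in the minor groove and bends the helix, and they usually act with a partner factor. The family is divided into subgroups by the sequence of this box. Sox1 and Sox2 (subgroup B1) act in neural progenitors and Sox2 also in pluripotent cells, Sox4 and Sox11 (C) in neural and mesenchymal progenitors and in the forming outflow tract of the heart, Sox5 and Sox6 (D) and Sox9 (E) in cartilage, with Sox9 also in the heart valves, and Sox7, Sox17 and Sox18 (F) in endothelium, with Sox17 also in endoderm. Many Sox genes are short, with a single coding exon, and some lie in long stretches without other coding genes.

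Sequence of 2 kinds lay under the peaks of these genes. The central bases of the peaks closest to a TSS in each subgroup are shown because they carry this difference, together with the peak farthest from its TSS. Capitals mark CpG dinucleotides, and each sequence is on the strand of its gene. The first set is single-copy sequence next to the start of Sox1 (chr8:12395435-12395518, plus strand, 84 bases just before the TSS), in the coding exon of Sox11 (chr12:28027107-28027273, minus strand, 167 bases from the start codon into the codons that open the HMG box) and at the exon and intron boundary inside Sox18 (chr2:181405700-181405899, minus strand).
Sox1 at the TSS: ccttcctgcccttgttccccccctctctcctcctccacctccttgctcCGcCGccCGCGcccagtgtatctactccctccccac
Sox11 coding exon: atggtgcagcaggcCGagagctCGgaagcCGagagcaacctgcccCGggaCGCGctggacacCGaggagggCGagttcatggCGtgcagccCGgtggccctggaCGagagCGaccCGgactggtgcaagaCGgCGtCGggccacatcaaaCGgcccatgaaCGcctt
Sox18 intron: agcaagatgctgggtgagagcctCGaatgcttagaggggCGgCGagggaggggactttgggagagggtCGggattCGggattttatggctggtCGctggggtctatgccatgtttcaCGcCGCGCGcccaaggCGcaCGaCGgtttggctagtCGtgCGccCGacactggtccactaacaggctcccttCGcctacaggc

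The second set occurs many times in the genome. It is shown for the intron of Sox6 (chr7:122961652-122961851, minus strand) and for the peak 560617 bp upstream of Sox11 (chr12:28588101-28588300, minus strand).
Sox6 intron: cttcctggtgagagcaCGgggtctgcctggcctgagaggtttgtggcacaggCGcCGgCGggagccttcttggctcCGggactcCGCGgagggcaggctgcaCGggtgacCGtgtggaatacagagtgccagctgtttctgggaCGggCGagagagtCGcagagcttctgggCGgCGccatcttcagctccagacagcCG
Sox11 far upstream: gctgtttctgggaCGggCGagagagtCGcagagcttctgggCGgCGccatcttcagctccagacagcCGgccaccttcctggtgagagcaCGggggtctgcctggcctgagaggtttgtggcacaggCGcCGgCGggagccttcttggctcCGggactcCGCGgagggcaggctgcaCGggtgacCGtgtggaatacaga
These windows, on different chromosomes, hold the same words in a shifted order. A run of 108 bases is identical between positions 18 to 125 of the Sox6 window and positions 93 to 200 of the Sox11 window, and a further 69 bases between positions 132 to 200 and 1 to 69.

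Among the subgroup B1 genes, Sox1 had 2 peaks and Sox2 had 0. The Sox1 peaks lay side by side on chromosome 8, with a gap of 60 bp. The peak at 12394997 to 12396072 was 1075 bp wide, was centred 15 bp from the TSS and spanned it. Its neighbour at 12396132 to 12397971 was 1839 bp wide, was centred 1532 bp downstream, and held the codons that open the HMG box. Sox1 is not in the GENCODE M1 annotation under this name, so its TSS at 12395519 on the plus strand was inferred from both deposited distances, which lead to the same position. In that annotation both midpoints lie in an intron of Gm5607, and 2 further peaks assigned to Gm5607 lay 9.55 and 10.3 kb upstream of the Sox1 TSS. These were also at single-copy sequence, so that 4 peaks lay within 100 kb of the Sox1 TSS, against a median of 1 over 22367 protein-coding genes.

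Sox2, with Pou5f1 a core factor of pluripotency, was the gene of the 10 with the most distant nearest peak. This peak was centred 481 kb downstream, was assigned to Mir6378 and was at sequence with a median of 1994 copies. It was the only peak within 500 kb of the Sox2 TSS, where protein-coding genes had a median of 7, and 98.7% of those genes had a nearest peak at a shorter or the same distance. The interval between the protein-coding TSSs on either side of Sox2 is 1673 kb long.

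Both subgroup C genes had a single-copy peak over their coding exon, as drawn in the map of peaks over coding exons. The Sox4 peak (chromosome 13, 29043532 to 29045329) was 1797 bp wide, was centred 1121 bp downstream of the TSS and covered 100% of the 1320 bp coding sequence. All of this peak was exonic and it did not reach the TSS. The Sox11 peak (chromosome 12, 28026019 to 28028393) was 2374 bp wide, wider than or as wide as 98.8% of all peaks. It was centred 377 bp downstream, spanned the TSS and covered 100% of the 1185 bp coding sequence. Both held the codons that open the HMG box.

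**Figure D1:**
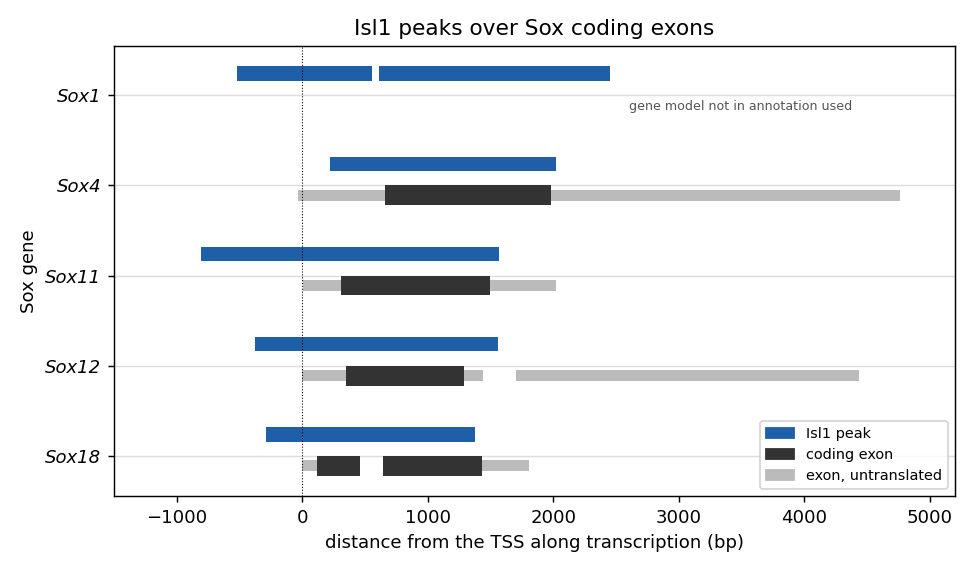
Isl1 peaks (blue) over the exons (grey, coding part black) of 5 Sox genes, in bp from the deposited TSS along the direction of transcription. The peaks of Sox4, Sox11 and Sox12 cover 100% of the coding sequence and that of Sox18 covers 95%; no exons are drawn for Sox1, which the annotation lacks under that name.

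Sox11 had 2 more peaks, both intergenic and upstream. The peak centred 38409 bp upstream (chromosome 12, 28065679 to 28066306) was 627 bp wide. Its central sequence is a run of CT dinucleotides, whose 31-base words occurred at a median of 831726 places in the genome. The third peak (chromosome 12, 28587630 to 28588770) was 1140 bp wide and lay 560617 bp upstream, with a median of 999 copies. The central 100 bases of the CT peak (chr12:28065943-28066042, minus strand) are shown because no other Sox peak had a copy number of this size, a choice made after its values were seen.
Sox11 CT run: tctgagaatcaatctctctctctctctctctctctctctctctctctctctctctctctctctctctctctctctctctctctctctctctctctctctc

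The subgroup D genes Sox5 and Sox6 span 954 and 567 kb in the annotation. Sox6 had 2 peaks, both in introns and both at multi-copy sequence. The peak at chromosome 7, 122960914 to 122962589 was 1675 bp wide and lay 6473 bp downstream of the TSS to which it was assigned, with 844 copies. The peak at 122732285 to 122733626 was 1341 bp wide and had 842 copies. It was placed 212168 bp downstream of another start, at 122945123. That start is 23098 bp from the nearest annotated start of a coding Sox6 transcript. The TSS used for the closer peak, at 122968224, is a start inside the gene, and from the outermost start of Sox6 in the annotation, at 123182258, the peaks were 221 and 449 kb away. No peak reached within 1 kb of an annotated start of a Sox6 transcript.

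Sox5 had no assigned peak but had 3 peaks inside its gene body, all assigned to the noncoding gene Sox5os3. One of them (chromosome 6, 144729925 to 144731026) was 1101 bp wide, was at single-copy sequence with a GC content of 65.0%, and was centred 22 bp from the outermost start of the Sox5 transcripts, at 144730497. The transcripts that begin there are annotated as noncoding products of Sox5. The other peaks inside the gene lay 64.4 and 239 kb downstream of that start, with 64 and 639 copies. Another peak assigned to Sox5os3 lay 69.1 kb upstream, with a median of 1.5 copies. The 78 bases before the Sox5 start (chr6:144730498-144730575, minus strand), which lie under the peak, hold a run of GA dinucleotides, and are shown because the gene name alone hides this peak, also a choice made after seeing the values.
Sox5 upstream of the outermost start: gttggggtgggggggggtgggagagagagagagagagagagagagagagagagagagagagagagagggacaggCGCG

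Sox9, the only subgroup E gene of the 10, had no assigned peak. The nearest peak was centred 96.0 kb downstream of its TSS, was assigned to 1700012H19Rik, was 514 bp wide and was at single-copy sequence with a GC content of 40.5%. It was the only peak within 100 kb, and there were 2 within 500 kb.

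The subgroup F genes differed in whether and where they had peaks. Sox18 had 1 peak (chromosome 2, 181404966 to 181406633), which was 1667 bp wide, was centred 546 bp downstream of the TSS and spanned it. It covered 1075 of 1131 coding bp, or 95%, and held the codons that open the HMG box. Sox17 had 2 intergenic peaks on chromosome 1. The narrower, at 4470690 to 4471134, was 444 bp wide and lay 16523 bp downstream, past the end of the gene. It was the narrowest of the 11 peaks, and its central sequence (chr1:4470863-4470962, minus strand) is made mostly of CA dinucleotides.
Sox17 CA run: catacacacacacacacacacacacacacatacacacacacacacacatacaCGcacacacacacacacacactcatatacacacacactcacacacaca
Its 31-base words had a median of 128 copies, whereas words of 75 bases had 1, so it was called multi-copy by the shorter words only. The wider Sox17 peak, at 4549276 to 4551373, was 2097 bp wide, lay 62889 bp upstream and had 1545 copies. Sox7 had no assigned peak. The nearest to it was centred 219 kb downstream, was assigned to Prss52 and was at sequence with 18166 copies.

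**Figure D2:**
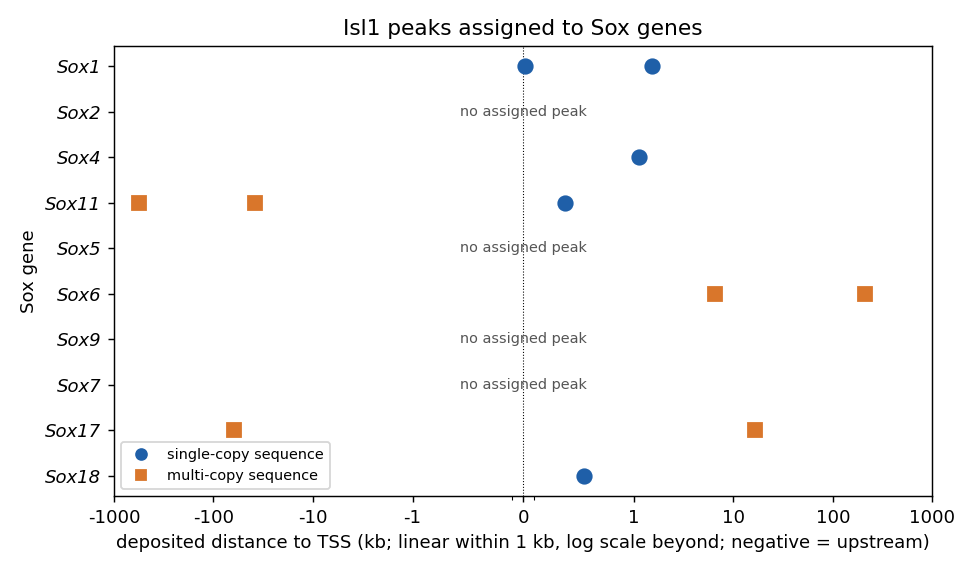
Deposited distance to the TSS (x axis, kb, linear within 1 kb and log scale beyond, negative upstream) of the 11 Isl1 peaks assigned to the 10 Sox genes, 1 gene per line. Circles are single-copy and squares multi-copy sequence; the 5 circles lie at or within 1532 bp downstream of a TSS, and 5 of the 6 squares lie more than 10 kb away.

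Counted over the list, 6 of the 10 genes had an assigned peak (60%, 95% Wilson interval 31.3% to 83.2%, which covers the small number of genes only), against 39.1% of 21031 protein-coding genes. Sox1, Sox6, Sox11 and Sox17 had at least 2 peaks, which is 4 of 10 against 11.1%, with the peaks of Sox1 only 60 bp apart. The same count was 1 of the other 10 Sox genes, 29.5% of the Forkhead genes and 35.3% of the T-box genes. Of the 4 genes, Sox1 had 2 single-copy peaks, Sox11 had 1, and Sox6 and Sox17 had 0. Peaks no farther than 1 kb from the TSS were found at Sox1, Sox11 and Sox18, or 3 of 10 (interval 10.8% to 60.3%) against 24.2%. With a limit of 10 kb, Sox4 and Sox6 were added, which made 5 of 10 against 28.3%. A single-copy peak was present at Sox1, Sox4, Sox11 and Sox18, or 4 of 10 against 28.7%. No test was made, since the genes were picked with results of these data known.

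The deposited gene name gives each peak to the single closest TSS, so the stretch of 1 kb to either side of every annotated transcript start was also searched for a peak of any name that overlapped it, an alternative added after seeing the data. Sox1, Sox4, Sox5, Sox11 and Sox18 had such a peak, or 5 of 10 against 27.1% of 22367 GENCODE genes. Compared with the 6 genes with an assigned peak, Sox5 was gained and Sox6 and Sox17 were lost. Sox5 counted only through its outermost start, whose transcripts are annotated as noncoding. Sox1, which the annotation lacks by name, was searched at its inferred TSS. Sox2, Sox6, Sox7, Sox9 and Sox17 had no peak at any annotated start.

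The 11 peaks fell into 2 kinds that differed in position and sequence together. The 5 single-copy peaks, of Sox1, Sox4, Sox11 and Sox18, were 1075 to 2374 bp wide and were centred 15 to 1532 bp downstream of a TSS. The 6 multi-copy peaks, of Sox6, Sox11 and Sox17, were 444 to 2097 bp wide, and 5 of them lay more than 10 kb from the TSS, the exception being the Sox6 peak 6473 bp away. Over all peaks, 81.2% of those beyond 10 kb and 2.62% of those within 1 kb were multi-copy. Multi-copy sequence made up 54.5% of the Sox peaks (6 of 11, interval 28% to 78.7%) and 46.5% of all peaks, and peaks within 1 kb made up 27.3% (3 of 11, interval 9.75% to 56.6%) and 38.5%. The median width of the Sox peaks was 1667 bp, against 947 bp over all peaks. The position of the midpoint downstream of the TSS was shared by the 5 single-copy Sox peaks. It was also shared by 80.9% of all peaks within 1 kb and by 76% of those within 10 kb.

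In base composition the 2 kinds overlapped in GC content. No multi-copy peak had a CpG ratio inside the range of the single-copy peaks, but the multi-copy ratios lay on both sides of that range. The single-copy peaks had a GC content from 62.5% to 73.5% in their central 200 bp and a CpG observed to expected ratio from 0.901 to 0.974. For all peaks within 1 kb the medians were 74.0% and 0.929, and for all peaks within 10 kb they were 73% and 0.897. The Sox6 peaks, the far Sox11 peak and the upstream Sox17 peak had a GC content of 65.0% to 67.0%, above that of the single-copy Sox18 peak, and lower ratios of 0.579 to 0.699. The dinucleotide runs stood apart, with a GC content of 46.5% for Sox11 and 48.5% for Sox17. Their ratios were 0 and 2.17, at the lower end and near the upper end of all peaks. The 100 bases shown from the Sox17 run hold 1 CpG, and over its whole peak the ratio was 0.586.

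**Figure D3:**
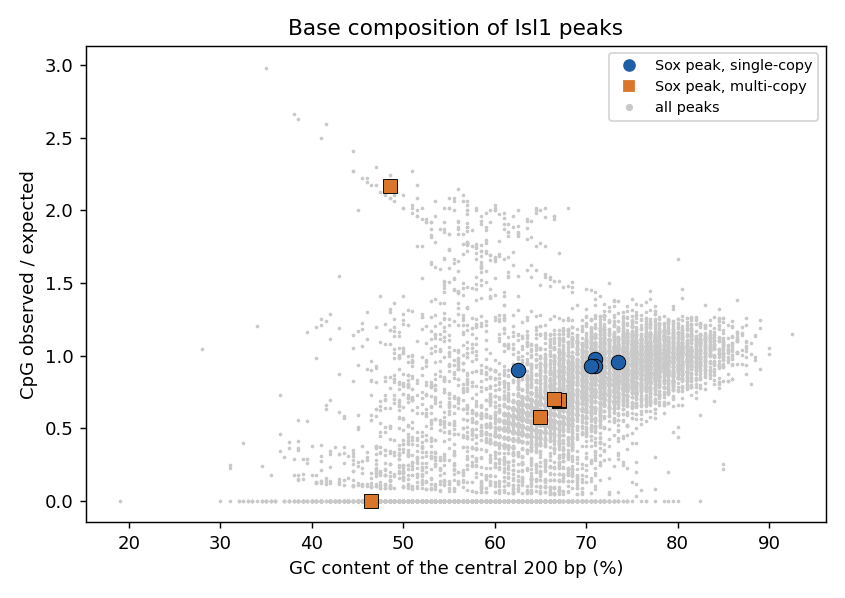
GC content (x axis, percent) and CpG observed to expected ratio (y axis, no unit) of the central 200 bp of all 14082 peaks (grey points) and of the 11 Sox peaks (blue circles single-copy, orange squares multi-copy). The 5 single-copy Sox peaks lie between 62.5% and 73.5% GC with ratios of 0.901 to 0.974, and the dinucleotide runs of Sox11 and Sox17 lie below 50% GC.

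The multi-copy peaks of Sox6 and Sox11 shared their sequence. Over whole peaks, 79.2% of the distinct 31-base words of the Sox6 peak at 212168 bp occurred in the Sox6 peak at 6473 bp, and 84.6% the other way round. Of the words of the Sox11 peak 560617 bp upstream, 67.1% and 63.4% occurred in these Sox6 peaks. Each of the 3 resembled itself most after a shift of 206, 205 or 205 bp (56.5%, 53.7% and 43.5% identical positions), as a tandem array does, whereas the best shift of the single-copy peaks gave 31.5% to 37.3%. The upstream Sox17 peak had its highest identity, 71.1%, after 212 bp and shared 0 words with the other 5 multi-copy peaks. Peaks of this kind were common in the list. At least 50% of the central words of 1404 other peaks occurred in the upstream Sox17 peak, and 1335 of these peaks were assigned to a TSS more than 10 kb away. For the Sox6 peaks the number was 297 each, and for the far Sox11 peak 262. For the dinucleotide runs of Sox11 and Sox17 it was 2 each. The study mapped its reads with bowtie2 at default settings, under which a read that matches several places equally well is placed at 1 of them, picked at random, and no filter on such reads is named for these libraries. The part of this in these peaks was not tested.

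As a description of the letters under the peaks, short strings were searched for in the central 200 bp, reading either strand. CTAATTG or CTAATGG, of the type bound by LIM-homeodomain factors, was in 0 of 11 Sox peaks and in 0.412% of all peaks. AGATAA, of the type bound by GATA factors, was in 0 of 11 and in 1.70%, and CATTGT, of the type bound by Sox factors, in 0 of 11 and in 1.58%. GGGCGG, of the type bound by Sp factors, was in 8 of 11 Sox peaks, in 42.0% of all peaks and in 65.7% of all peaks within 1 kb. Of the 8, 3 are the Sox6 and far Sox11 peaks that share most of their sequence, and so are not separate cases. It was absent from the windows of the Sox11 peak at the TSS and of both dinucleotide runs. By its Wilson interval, 0 of 11 allows a share of up to 25.9%, so these 11 peaks cannot show whether the first 3 strings are rarer or more frequent than in the list.

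The genes without an assigned peak had promoters with a GC content inside the range of the genes with a single-copy peak. Promoters were taken as 500 bp to either side of the outermost annotated TSS, or of the inferred TSS for Sox1. For Sox5 this is a start of noncoding transcripts, and the window lies under the single-copy peak named Sox5os3. Sox5 therefore lacks a peak by name only. The GC content was 63.9% for Sox2, 66.1% for Sox5, 65.7% for Sox7 and 62.6% for Sox9, against 68.4% for Sox1, 67.5% for Sox11, 62.5% for Sox18 and 53.0% for Sox4. The CpG observed to expected ratios of the genes without an assigned peak were 0.841, 0.771, 0.769 and 0.804 in the same order. They were 0.788 for Sox1, 0.969 for Sox11, 0.77 for Sox18 and 0.796 for Sox4. Medians over protein-coding genes were 54.7% and 0.549. Sox17 and Sox6, whose peaks were all multi-copy, had lower GC values of 49.2% and 43.2%. These windows do not hold the starts to which their peaks were assigned. The deposited TSS of Sox17 was 941 bp from the annotated one, and the Sox6 peaks were assigned to starts inside the gene.

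The other 10 genes of the family were set beside these. Of them, 5 had an assigned peak (Sox10, Sox12, Sox13, Sox14 and Sox30), and 4 had one within 1 kb, all but Sox14. Over protein-coding genes the shares were 39.1% and 24.2%. Sox10, a factor of the neural crest, had peaks of 609 bp and 1224 bp centred 27 bp upstream and 1090 bp downstream of its TSS, with a gap of 201 bp between them, an arrangement also seen at Sox1. The peak of Sox12, the third subgroup C gene, was 1935 bp wide and covered 100% of its 942 bp coding sequence, as at Sox4 and Sox11. The share of all genes covered in this way was not counted. Such coverage is not particular to subgroup C, since the Sox18 peak covered 95%. Sox13, in subgroup D, had a peak centred 230 bp from its TSS, and Sox30 one at 197 bp. The Sox14 peak was 442 bp wide and 71327 bp upstream. None of these 6 peaks was multi-copy.

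As at Sox5, a peak near a start of Sox8 and of Sox21 carried the name of another gene, and neither gene had an assigned peak. A peak of 2073 bp centred 350 bp from the Sox8 TSS carried the name 2810468N07Rik, and a peak of 2639 bp centred 1192 bp from the Sox21 TSS carried the name LOC105245869. Both were single-copy and held the codons that open the HMG box of Sox8 and Sox21. The Sox5 peak differed, since it lay at a start of noncoding transcripts and did not hold these codons. By peaks of any name, 11 of the 20 Sox genes (55%) had a peak overlapping the 1 kb around an annotated start, against 27.1% of 22367 protein-coding genes. Of these Sox genes, 5 are among the 10 described here, with Sox1 at its inferred TSS and Sox5 at a start of noncoding transcripts. The remaining genes of the family, Sry, Sox3 and Sox15, had their nearest peak at 460, 269 and 26.7 kb.

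**Figure D4:**
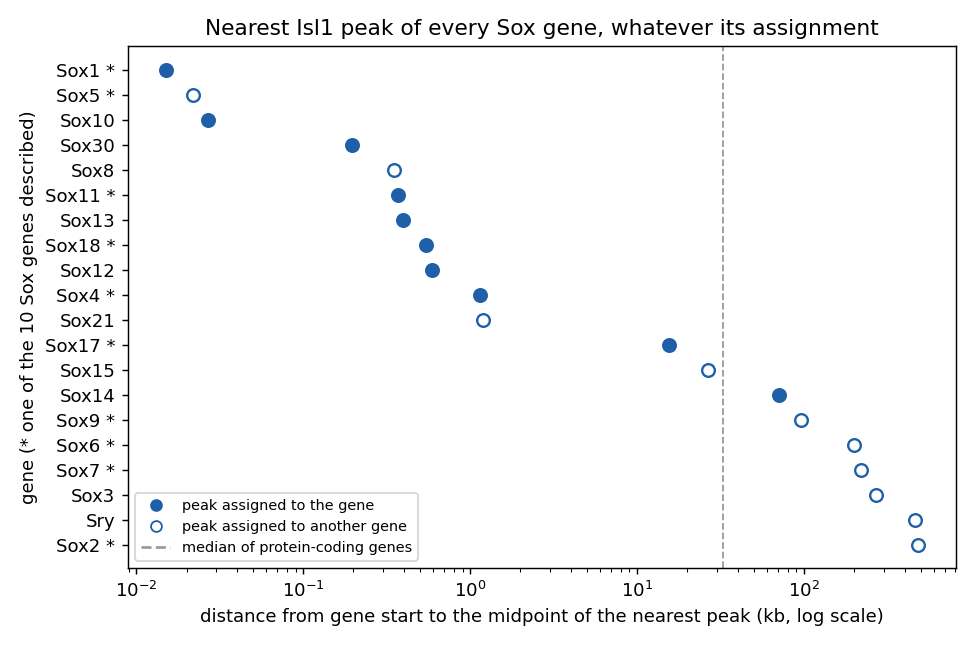
Distance (kb, log scale) from the outermost annotated start of each of the 20 Sox genes (for Sox1, the inferred TSS) to the midpoint of the nearest peak, filled where that peak is assigned to the gene and open where it is assigned to another gene. The dashed line is the median of protein-coding genes, 32.5 kb; 13 Sox genes, from Sox1 at 0.015 kb to Sox15 at 26.7 kb, lie below it, and Sox2 is farthest at 481 kb.

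In 2 other families of developmental transcription factors the counts were 32 of 44 Forkhead genes (72.7%) and 9 of 17 T-box genes (52.9%) with an assigned peak, and 27 and 6 with a peak within 1 kb. Over protein-coding genes these shares were 39.1% and 24.2%. These families were listed for comparison and the difference from the Sox genes was not tested.

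Genes known as partners or targets of Sox factors were counted by the lineage in which they act. Of 35 such genes, 24 had an assigned peak (68.6%) and 14 had one within 1 kb (40.0%), against the 39.1% and 24.2% of protein-coding genes. The neural list stood at 7 and 6 of 9. The genes with a peak near the TSS were Nes, an intermediate filament of neural stem cells (439 bp), the eye and forebrain factor Pax6 (300 bp), the Notch effector Hes5 (389 bp), the POU partners of SoxB1 factors Pou3f2 (416 bp) and Pou3f3 (721 bp), and Tead2 (260 bp). The Pou3f3 peak was 2583 bp wide. All 6 genes had a single-copy peak.

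The pluripotency list stood at 3 of 6, with 1 within 1 kb, at the Sox2 target Fgf4 (351 bp). In the cartilage list 2 of 6 genes had a peak, and 1 of them, the Sox9 target Col2a1, which encodes the chain of type II collagen, had it near the TSS (65 bp). The endoderm list stood at 4 and 3 of 6, with peaks near the TSS of the pioneer factors Foxa1 (266 bp) and Foxa2 (-331 bp) and of the laminin gene Lama1 (103 bp). In the endothelial list all 8 genes had a peak, and 3 had it within 1 kb, namely the lymphatic receptor gene Flt4 (89 bp), the venous factor Nr2f2 (398 bp) and the arterial ligand gene Efnb2 (-307 bp). The peaks of Mef2c, Prox1 and Vcam1 were multi-copy and distant, at -317029, -351535 and -29405 bp. A single-copy peak was present at 5 of these 8 genes, and over all 35 partners and targets at 16 (45.7%). Over protein-coding genes 28.7% had a single-copy peak, 39.1% an assigned peak and 24.2% one within 1 kb. The lists hold 6 to 9 genes each, and no list was tested against another.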

How the data were processed

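Isl1 was profiled by ChIP-Seq in 3 samples of mouse CPCs, grouped by their titles and antibody labels. According to the study's methods, the authors aligned reads to mm9 with bowtie2, removed duplicates with Picard 1.136, called peaks with MACS14 without a model, dropped blacklisted regions, kept areas common to both replicates with bedtools 2.15 and assigned each area to the closest TSS with HOMER. Picard and bedtools versions are from the submitters' processing notes. The deposited list holds positions, a gene name, and the signed distance to the TSS in bp, which was treated as a score with no fixed range. It holds no read counts, so depth and replicate error are unknown.

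Here, repeated lines were counted once. Sequence came from NCBI m37, the mm9 assembly, and 0 peaks ran past a chromosome end. Gene models came from GENCODE M1, and gene names and the 21031 protein-coding genes from a RefSeq table of GRCm38, without its coordinates. 8 names in the list had no match. Copy number was the median number of genomic places, counting either strand, of the 31-base words in the central 200 bp, and at least 2 was called multi-copy. The word count was tested on simulated sequence. The opening of the HMG box was found by translating peaks on the gene strand and searching for its conserved residues. Bases between a TSS and a start codon were left out of printed sequences. Shares carry 95% Wilson intervals (python 3.11.15, numpy 2.4.6, numba 0.67.0), which cover the number of genes or peaks only.

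The genes, lists and naming rule were chosen with earlier results of these data known, so no test was made. All 10 Sox genes are named with every peak, the other family members with a peak, and partners or targets with a peak within 1 kb. Sry, Sox3, Sox8, Sox15 and Sox21 were added after their values were seen.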

Additional observations from a re-analysis of the deposited data

How the results depend on the processing

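There were 31 alternatives over 5 results: genes with a peak, number of peaks, share within 1 kb, multi-copy share and median width. Of these, 28 stayed within 1.5 times the value or inside its interval and 3 did not. The alternatives that kept repeated lines could not differ, because 0 repeated lines belonged to these genes. The intervals are also wide: a share of 54.5% with a limit of 10 kb, against 27.3% with 1 kb, still counted as staying. Requiring a peak within 1 kb lowered the Sox genes with a peak from 6 to 3. Counting single-copy peaks alone lowered the Sox peaks from 11 to 5 and raised the share within 1 kb from 27.3% to 60.0%, which follows from the multi-copy peaks lying farther away. With the closest protein-coding TSS of GENCODE M1 in place of the deposited name, 8 Sox genes had 15 peaks: Sox2, Sox5 and Sox9 gained distant peaks, Sox4 rose from 1 to 3, and Sox1, not in that annotation by name, lost its own. Words of 75 bases put the multi-copy share at 45.5%. No paired analysis was possible because both ChIP replicates enter the list together and the input has no peaks of its own, and for the same reason no replicate could be left out. A missing peak says only that no area passed the caller in both replicates, and low occupancy cannot be told apart from low depth. When single-copy sequence was required, Sox1, Sox4 and Sox18 kept every peak and Sox11 kept 1 of 3.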
